A study of Mus musculus with 24 samples.

Results

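Fkbp5, Sgk1, Tsc22d3, Zbtb16, Pdk4, Hif3a, Plin4, Map3k6, Klf9 and Arrdc2 are 10 mouse genes whose transcription is known to respond to glucocorticoid hormones. They were taken by gene symbol from the platform annotation, with the probe set of highest mean signal per gene. Each had 1 probe set, so they make up 10 of 22206 probe sets tested, which stand for 19505 named genes beside unnamed transcripts. RNA was measured on whole-transcript arrays, 1 for each brain hemisphere of each mouse, in C57Bl/6j males of 8 to 10 weeks. A group of 8 had 1 middle cerebral artery closed from inside the vessel for 90 min and then reopened for 30 min (MCAO), and 4 had sham surgery. MCAO mice were killed 2 h after onset, and no time from onset was recorded here for sham mice. All mice had their blood washed out with cold saline, and gave an ipsilateral hemisphere (the operated side) and a contralateral hemisphere. The ipsilateral sample was a whole hemisphere, so it holds occluded and spared tissue together, and both groups underwent surgery, so neither is an undisturbed baseline.

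Glucocorticoids (corticosterone in mice) are released by the adrenal gland under stress and cross into the brain from the blood, so a rise in the hormone reaches both hemispheres of an animal. Inside cells the hormone binds the glucocorticoid receptor (Nr3c1), which is held ready by Hsp90 and co-chaperones, moves to the nucleus and binds DNA. The mineralocorticoid receptor (Nr3c2) binds the same hormone in parts of the brain such as the hippocampus. Surgery and anaesthesia are themselves stressors. The hormone itself was not analysed here, and in whole hemispheres fewer cells of a type and less RNA per cell cannot be told apart.

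Of the 24 arrays, 4 stood apart: both hemispheres of MCAO mouse 3 and both of sham mouse 1. They correlated at 0.319 to 0.589 with the other arrays, whose own median correlations were 0.981 to 0.989, and the SD over their probe sets was 1.437 to 1.54, against 2.328 to 2.414 in the others. Klf9, for example, read 6.44 and 3.77 in MCAO mouse 3 and 6.21 and 5.51 in sham mouse 1, while the other 20 arrays lay between 9.44 and 9.97. Values are therefore given for the other 20 arrays, from 7 MCAO and 3 sham mice, with all 24 beside them where the reading differs. Signals are on the log2 scale. The background limit of an array was set at the level that 95% of its negative controls do not exceed, and lay between 5.17 and 5.74. Fkbp5, Sgk1, Tsc22d3, Zbtb16 and Klf9 were above it on 20 of 20 arrays and Arrdc2 on 17. Pdk4 passed on 10 arrays, Plin4 on 1, and Hif3a and Map3k6 on 0, so that for the last 3 differences of measured signal are given and no fold. Markers of neurons, astrocytes and oligodendrocytes were above background on every one of the 20 arrays, as the labelled tissue requires. Of 7 endothelial markers 4 were above it on all arrays, and of 5 microglial markers 2.

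None of the 10 genes differed between hemispheres or between MCAO and sham mice past the threshold of 0.05 on Benjamini-Hochberg adjusted p in limma, in any of 6 comparisons. At most 0.149% of all probe sets did so in any of them. For 8 of the 10, more of the spread within groups lay between mice than within them, beside 18.9% of all probe sets. Without MCAO mouse 5 this count was 5, beside 20.5%. By the mean of both hemispheres, MCAO mouse 4 was highest for 6 of the 10 genes (13.4% of all probe sets) and MCAO mouse 7 for 4 (9.9%). MCAO mouse 5 was lowest for 6 (20.4%).

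Fkbp5 encodes an Hsp90 co-chaperone that lowers the hormone sensitivity of the receptor and is itself induced by it. Its signals in MCAO mice 1, 2, 4, 5, 6, 7 and 8 were 7.53, 7.29, 8.28, 7.41, 7.72, 7.79 and 7.85 in the ipsilateral hemisphere. In the contralateral hemisphere of the same mice, in the same order, they were 7.82, 7.29, 8.85, 7.50, 8.07, 8.71 and 7.92. MCAO mouse 4 was highest and MCAO mouse 2 lowest on both sides, and the ranges of MCAO and sham mice overlapped. Sham mice 2, 3 and 4 had 7.78, 8.49 and 8.02 in the ipsilateral and 7.95, 8.47 and 8.16 in the contralateral hemisphere. Averaged over the hemispheres of each mouse, MCAO mice spanned 1.28 log2 units, a 2.43-fold range between animals that had the same operation. The ipsilateral hemisphere was lower than the contralateral one by 0.33 ± 0.11 (SE) in MCAO mice, with an adjusted p of 0.504 in limma. It was lower in 6 of 7 animals, and in MCAO mouse 2 the hemispheres were equal to the second decimal (−0.0018).

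Among the regulators of transcription, Tsc22d3 encodes a leucine zipper protein, also called GILZ, that restrains inflammatory signalling. Its lowest, median and highest signals were 7.28, 7.73 and 8.02 in the ipsilateral and 7.41, 7.97 and 8.29 in the contralateral hemispheres of MCAO mice. Sham mice had 7.69, 7.79 and 7.86 on the ipsilateral side and 7.79, 7.93 and 7.89 on the contralateral side, inside the MCAO range. MCAO mouse 5 was lowest on both sides.

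Zbtb16 encodes a zinc finger repressor also known as PLZF. It ranged over 7.95, 8.21 and 8.88 (lowest, median, highest) in the ipsilateral and 8.17, 8.36 and 9.07 in the contralateral hemispheres of MCAO mice. Sham mice 2, 3 and 4 had 8.60, 8.35 and 8.42 in the ipsilateral and 8.47, 8.55 and 8.40 in the contralateral hemisphere. MCAO mouse 4 stood highest on both sides, and the ipsilateral signal was the lower one in 7 of 7 MCAO mice, by 0.16 ± 0.08 (SE, adjusted p = 0.715, limma).

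Klf9 encodes a Krüppel-like factor that also answers to thyroid hormone. It varied least of the 10 genes, with a range of 0.44 over the MCAO mouse means, from 9.51 in mouse 5 to 9.95 in mouse 7. Sham mouse means were 9.90, 9.82 and 9.69, within that range.

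Hif3a encodes an alpha subunit of the hypoxia-inducible factors, some forms of which dampen the hypoxia response. Its ipsilateral signals in MCAO mice were 3.60 at the lowest, 4.12 at the median and 4.57 at the highest, against 4.81, 4.57 and 4.59 in sham mice 2, 3 and 4. It was the 1 member of 10 for which every MCAO mouse lay below every sham mouse in the ipsilateral hemisphere, where 0.986% of all probe sets did, and the closest pair was equal to the second decimal. These signals were below the background limit on all 20 arrays. The difference was −0.57 ± 0.22 (SE, adjusted p = 0.595, limma).

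**Figure D1:**
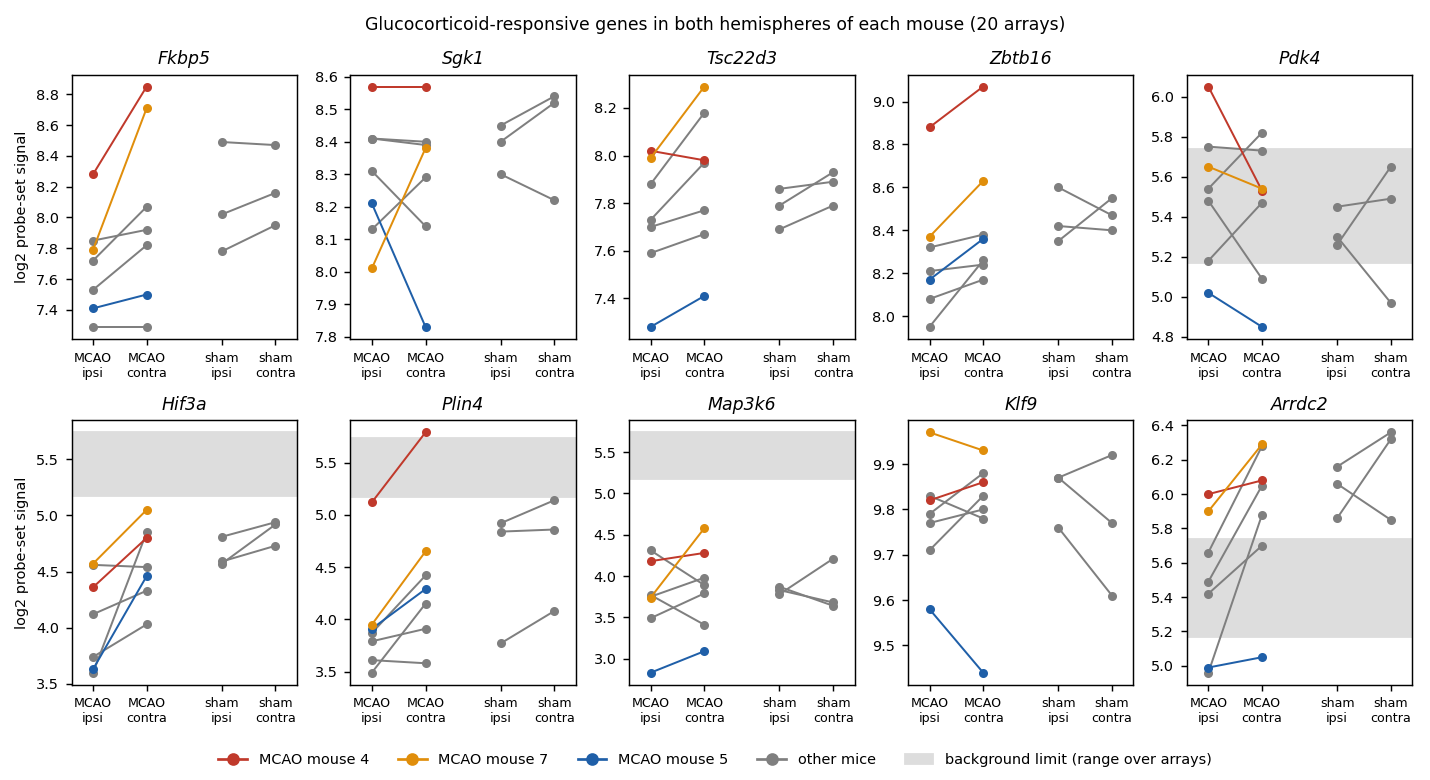
Log2 probe-set signal (y axis, scale set for each gene) of the 10 glucocorticoid-responsive genes in the ipsilateral and contralateral hemispheres of 7 MCAO and 3 sham mice. Each point is 1 array and each line joins the hemispheres of 1 mouse. The grey band, drawn where signals come near it, is the range of the background limit over the arrays. MCAO mouse 4 lies at or near the top and MCAO mouse 5 at or near the bottom of most panels in both hemispheres.

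Of the kinases, Sgk1 promotes ion channel and transporter activity and is induced by serum, osmotic stress and glucocorticoids. Its signals in MCAO mice were 8.01 at the lowest, 8.31 at the median and 8.57 at the highest in the ipsilateral hemisphere, and 7.83, 8.38 and 8.57 in the contralateral. Sham mice 2, 3 and 4 had 8.40, 8.45 and 8.30 on the ipsilateral and 8.52, 8.54 and 8.22 on the contralateral side, which overlap the MCAO values. The side difference was 0.01 ± 0.09 in MCAO mice and −0.05 ± 0.14 in sham mice (SE). Pdk4, a mitochondrial kinase that switches off pyruvate dehydrogenase, ranged from 5.02 to 6.05 in ipsilateral and from 4.85 to 5.82 in contralateral MCAO hemispheres, with MCAO mouse 5 lowest on both sides. Sham hemispheres ran from 4.97 to 5.65, inside these ranges. Map3k6, a stress-activated kinase, ranged from 2.83 to 4.31 and from 3.09 to 4.58 in ipsilateral and contralateral MCAO hemispheres, below background, and again MCAO mouse 5 was lowest on both sides.

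Plin4 codes for a perilipin, a coat protein of lipid droplets. Its ipsilateral signals in MCAO mice 1, 2, 4, 5, 6, 7 and 8 were 3.61, 3.49, 5.12, 3.91, 3.79, 3.95 and 3.87, and the contralateral ones, in the same order, 3.58, 4.15, 5.79, 4.29, 3.91, 4.65 and 4.42. MCAO mouse 4 exceeded every other MCAO mouse by more than 1 log2 unit on each side, and its contralateral array was the one above background. Sham mice 2, 3 and 4 had 4.84, 4.92 and 3.77 on the ipsilateral and 4.86, 5.14 and 4.08 on the contralateral side. Arrdc2, an alpha-arrestin linked to protein trafficking, ranged over 4.96, 5.49 and 6.00 (lowest, median, highest) in the ipsilateral and 5.05, 6.05 and 6.29 in the contralateral hemispheres of MCAO mice. Sham mice 2, 3 and 4 had 5.86, 6.16 and 6.06 on the ipsilateral and 6.32, 6.36 and 5.85 on the contralateral side. Sham mouse 3 was above the highest MCAO value on both sides, sham mouse 4 on the ipsilateral side only and sham mouse 2 on the contralateral side only. The ranges of MCAO and sham mice thus overlapped on each side. In 7 of 7 MCAO mice Arrdc2 was lower in the ipsilateral hemisphere, by 0.42 ± 0.12 (SE, adjusted p = 0.374, limma).

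Within MCAO mice, 0 of the 10 genes were called, where 0.135% of all probe sets were. At an unadjusted p under 0.05 there were 4 members (Fkbp5, Hif3a, Plin4 and Arrdc2), beside 7.1% of all probe sets, and 8 of the 10 differences were below 0, with a median of −0.16, against 51.6% and a median of 0 over all probe sets. Fkbp5, Zbtb16 and Arrdc2 were below 0 in 7 of 7 MCAO mice, as 1.22% of probe sets were, with Fkbp5 at −0.0018 in mouse 2. Counting 6 or 7 of 7 mice adds Tsc22d3, Hif3a and Plin4, giving 6 of 10 members beside 7.87% of probe sets. The greatest differences were −0.49 ± 0.13 for Hif3a (adjusted p = 0.343) and −0.44 ± 0.10 for Plin4 (SE, adjusted p = 0.232, limma). These signals were below background, apart from Plin4 in the contralateral hemisphere of MCAO mouse 4.

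In sham mice 9 of the 10 side differences were also below 0, with a median of −0.07, and 3 genes (Tsc22d3, Hif3a and Plin4) were lower ipsilaterally in 3 of 3 animals, beside 12.5% of probe sets. Neither members nor other probe sets were called there (percent called 0.0). On all 24 arrays 4 of the sham differences were below 0. Unadjusted, 0 members had p under 0.05 within sham mice, beside 5.49% of probe sets. The test of MCAO against sham side differences also called none (0.0% of probe sets, with 0 members and 5.91% of probe sets at an unadjusted p under 0.05 in limma), and for Fkbp5 it gave −0.23 with a 95% interval from −0.66 to 0.20. The lower ipsilateral signal is thus not shown to differ between MCAO and sham mice. Over the 6 comparisons and all alternative settings, the smallest adjusted p of any member was 0.0925, for Fkbp5 within MCAO mice with a trended, robust variance prior.

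**Figure D2:**
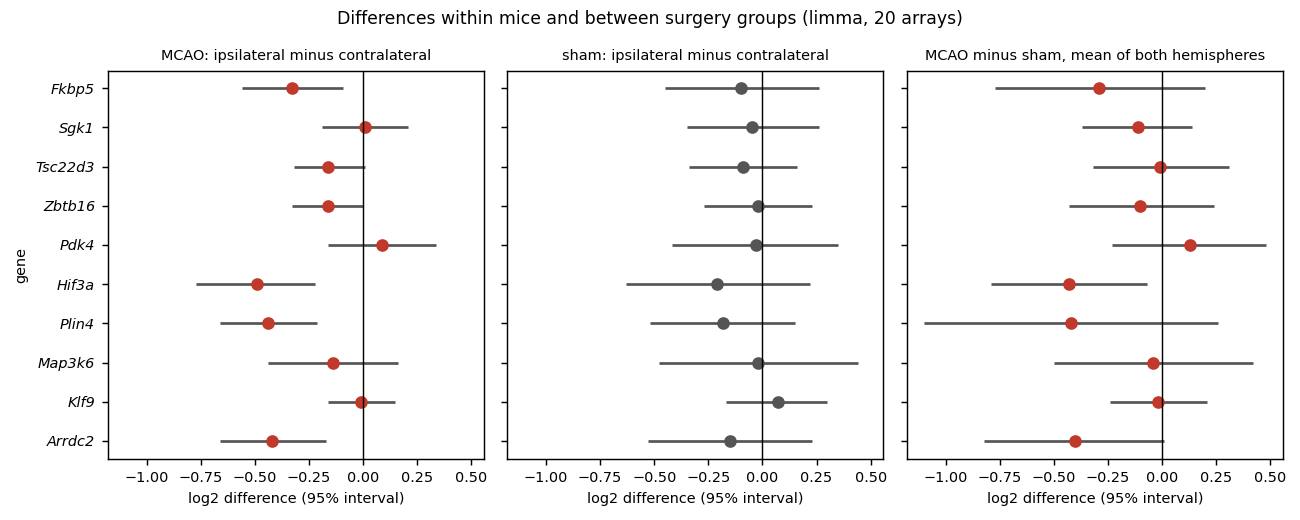
Log2 differences (x axis, points) with 95% intervals (bars) of the 10 genes, for the ipsilateral minus the contralateral hemisphere in 7 MCAO mice, the same in 3 sham mice, and MCAO minus sham mice for the mean of both hemispheres. In MCAO mice 8 of 10 points lie left of 0, and the intervals of the comparison between mice are wide, from −0.77 to 0.20 for Fkbp5.

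Between MCAO and sham mice, the mean of both hemispheres differed for none of the 10 genes past the threshold, where 0.131% of probe sets were called. MCAO mice averaged 7.86 ± 0.44 and sham mice 8.14 ± 0.31 for Fkbp5 (SD, n = 7 and 3), a difference of −0.29 with a 95% interval from −0.77 to 0.20. For Sgk1 the difference was −0.11 (interval −0.37 to 0.14), for Tsc22d3 −0.01 (−0.32 to 0.31), for Zbtb16 −0.10 (−0.43 to 0.24) and for Klf9 −0.02 (−0.24 to 0.21). These intervals leave room for differences of either sign. The widest departures were −0.43 for Hif3a (MCAO 4.33 ± 0.33, sham 4.76 ± 0.11, adjusted p = 0.775), −0.42 for Plin4 (adjusted p = 0.924) and −0.40 for Arrdc2 (MCAO 5.70 ± 0.39, sham 6.10 ± 0.15, SD, adjusted p = 0.859, limma). Of the 10 differences, 9 were below 0 on 20 arrays, with a median of −0.11, but 5 on all 24 arrays, with a median of 0.01.

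Taken by side, 0 members were called between ipsilateral hemispheres (0.149% of probe sets) and 0 between contralateral hemispheres (0.0%). At an unadjusted p under 0.05 there were 2 (Hif3a and Arrdc2, beside 7.48%) on the ipsilateral side and 0 (beside 4.59%) on the contralateral side. The mean over both sides had 1 (Hif3a, beside 5.72%). Arrdc2 was lower in MCAO mice by 0.54 ± 0.21 on the ipsilateral side (adjusted p = 0.611) and by 0.27 ± 0.23 on the contralateral side (SE, adjusted p = 1, limma).

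The spread between animals was then set beside the spread within them. After the mean of each of the 4 groups was removed, the share of variance lying between mice was expressed as an intraclass correlation, which is near 1 where the hemispheres of a mouse deviate together and near 0 or below where they do not. Its median over the 10 members was 0.71, against 0.17 over all probe sets (quartiles −0.10 and 0.43) and 0.32 over the 9996 probe sets above background on at least 3 arrays (quartiles 0.05 and 0.55). Of the members, 8 of 10 exceeded 0.5, where 18.9% of all and 30.1% of the brighter probe sets did. Plin4 had 0.91 (above background on 1 array), Zbtb16 and Tsc22d3 each 0.89, Fkbp5 0.78, Klf9 0.76 and Arrdc2 0.65. Map3k6 had 0.56, Pdk4 0.52, Sgk1 0.44 and Hif3a 0.42, and these 4 depended on single mice: leaving out 1 mouse at a time moved them over 0.10 to 0.69, 0.20 to 0.60, 0.21 to 0.64 and 0.19 to 0.71. Without MCAO mouse 5, Map3k6 was at 0.10, Pdk4 at 0.20 and Arrdc2 at 0.44, and 5 of 10 members exceeded 0.5, beside 20.5% of all probe sets. Sgk1 was lowest (0.21) without MCAO mouse 4 and Hif3a (0.19) without MCAO mouse 7. These are descriptions over 10 mice; the hemispheres of a mouse share the animal and may share handling, which cannot be told apart here.

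In the units of the signal, the SD of the Fkbp5 mouse means around their group was 0.41 and that of the side differences 0.29. For Plin4 these were 0.61 and 0.26, for Zbtb16 0.26 and 0.12, and for Tsc22d3 0.24 and 0.12. The SD of the mouse means was the larger one for 6 of 10 members and the smaller one for 4, which were Sgk1 (0.17 and 0.21), Pdk4 (0.29 and 0.32), Hif3a (0.29 and 0.37) and Map3k6 (0.39 and 0.41). These SDs are not on the same footing, since averaging hemispheres shrinks their separate variation and subtracting them enlarges it. A smaller SD of mouse means can thus go with an intraclass correlation above 0.5, as for Pdk4 (0.52) and Map3k6 (0.56). Leaving out 1 mouse at a time gave a median intraclass correlation of the members between 0.54 (without MCAO mouse 5, beside 0.17 over all probe sets) and 0.76. On all 24 arrays it was 0.75, and the median of all probe sets was 0.78 there, where 80.4% of probe sets were called as differing between mice.

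**Figure D3:**
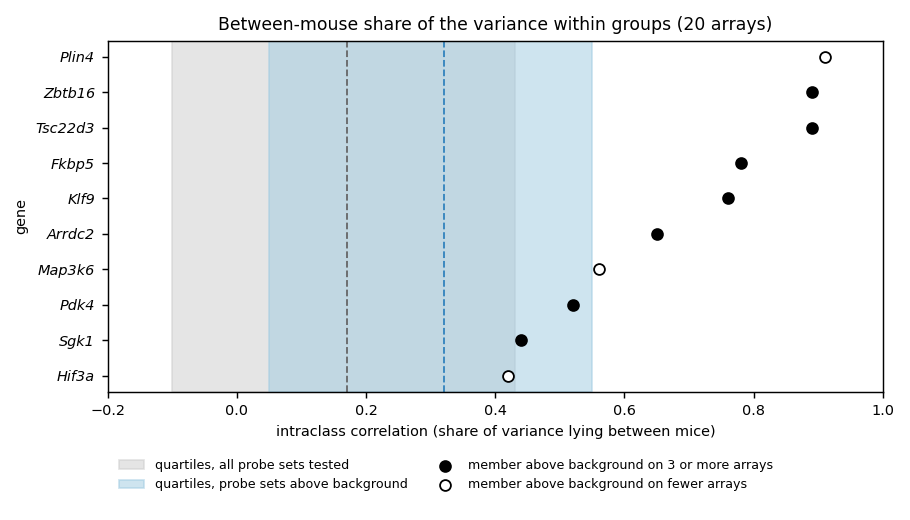
Intraclass correlation (x axis) of the 10 genes, the share of the variance within groups that lies between mice, on 20 arrays. Bands span the quartiles and dashed lines mark the medians of all probe sets (grey, median 0.17) and of those above background on 3 or more arrays (blue, median 0.32). Filled points are members above background on 3 or more arrays and open points the others; 8 of 10 lie above 0.5.

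A limma F test of differences between mice with the same operation, added after the values were seen, called Plin4 alone among the members (F = 20.06, adjusted p = 0.00372), where 0.689% of probe sets were called. Plin4 was above background on 1 of the 20 arrays. Fkbp5 had an adjusted p of 0.062, Zbtb16 of 0.0963 and Tsc22d3 of 0.12. In limma, 8 of the 10 had an unadjusted p under 0.05, beside 15.2% of all probe sets and 18.5% of the brighter ones. The exceptions in limma were Sgk1 (unadjusted p of 0.135) and Klf9 (0.163). The Plin4 call rested on MCAO mouse 4, with an adjusted p of 0.099 without it, and Fkbp5 passed without MCAO mouse 7 (adjusted p = 0.0367, limma). On all 24 arrays 7 members were called, among 80.4% of all probe sets.

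The same animals lay at the extremes for gene after gene. By the mean of both hemispheres, MCAO mouse 4 was the highest of the 7 MCAO mice for 6 genes (Fkbp5, Sgk1, Zbtb16, Pdk4, Plin4 and Map3k6) and among the top 3 for 10 of 10, where it was highest for 13.4% and in the top 3 for 41.1% of all probe sets. MCAO mouse 7 was highest for the other 4 (Tsc22d3, Hif3a, Klf9 and Arrdc2), against 9.9% of all probe sets. MCAO mouse 5 was lowest for 6 genes (Sgk1, Tsc22d3, Pdk4, Map3k6, Klf9 and Arrdc2) and below the group mean for 10 of 10, where it was lowest for 20.4% of all probe sets. Of the 10 genes, Map3k6 and Hif3a were above background on 0 of the 20 arrays, Plin4 on 1 and Pdk4 on 10. Among the other genes, mouse 4 was highest for Fkbp5, Sgk1 and Zbtb16, and mouse 7 for Tsc22d3, Klf9 and Arrdc2. Mouse 5 was lowest among them for Sgk1, Tsc22d3, Klf9 and Arrdc2. The median deviation of the 10 genes from the MCAO mean was 0.33 in mouse 4, 0.24 in mouse 7 and −0.34 in mouse 5, and within 0.16 of it in the other 4 mice.

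The places of mice 4 and 5 relative to the group mean were alike in each hemisphere, while that of mouse 7 was less so. These mice were singled out by the mean of both hemispheres, which holds the values of each side, so this likeness is partly built in. In the ipsilateral hemisphere MCAO mouse 4 was above the group mean for 10 of 10 genes and MCAO mouse 5 for 0 of 10, beside 49.5% and 47.2% of all probe sets. Mouse 7 was above the group mean there for 8 of 10 (49.4% of all probe sets). It was highest for 2 genes and lowest for 1 (Sgk1), with a median deviation of 0.11, near the 0.09 of mouse 8. In the contralateral hemisphere, which was not occluded, the counts for mice 4 and 5 were 10 of 10 and 0 of 10. MCAO mouse 7 was above the mean there for 10 of 10, with a median deviation of 0.32 beside 0.25 in mouse 4. Over all probe sets these mice were above the contralateral mean for 48.2%, 44.1% and 49.3%, for mice 4, 5 and 7 in turn. The labels give nothing that separates these 3 animals from the other MCAO mice.

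**Figure D4:**
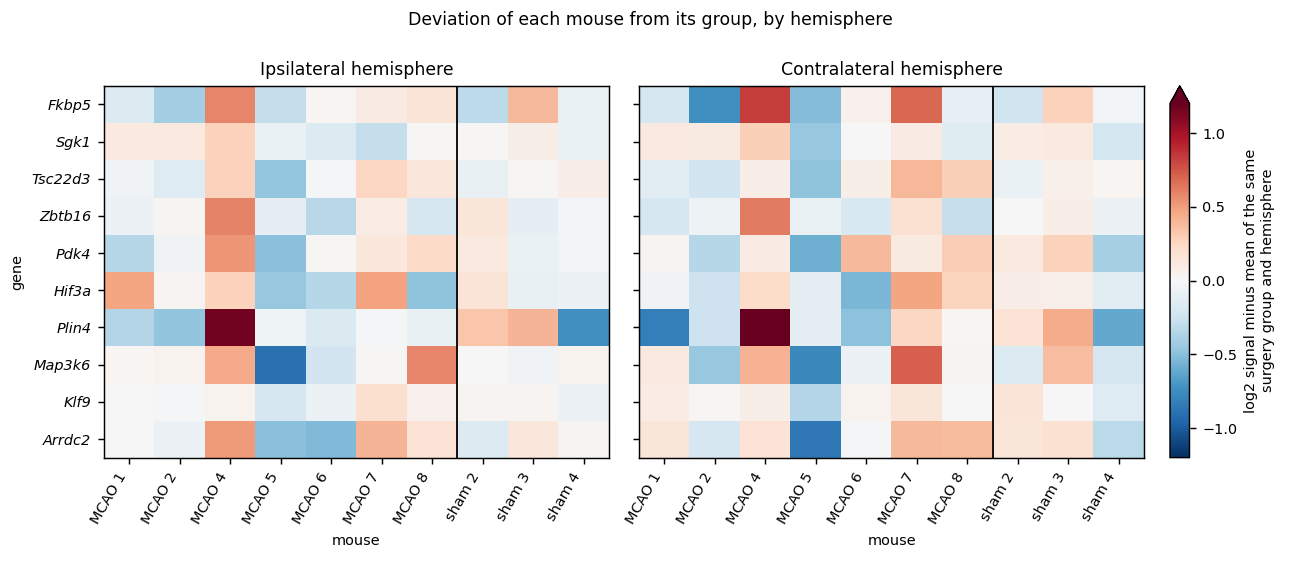
Deviation of each mouse (columns) from the mean of its surgery group, as log2 signal, for the 10 genes (rows) in the ipsilateral (left) and contralateral (right) hemisphere; the black line parts 7 MCAO from 3 sham mice. Red is above and blue below the group mean. The column of MCAO mouse 4 is red, that of mouse 7 mostly red and that of MCAO mouse 5 blue in both panels.

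The arrays of these 3 mice had median correlations of 0.984 to 0.989 with the rest. MCAO mouse 5 had the lowest median signals over probe sets of the 20 arrays (4.635 and 4.638, others 4.656 to 4.769) and, contralaterally, the lowest SD over probe sets (2.328, others from 2.331), and the contralateral array of MCAO mouse 4 had the highest background limit (5.74). The part of these array properties in the order of the mice was not tested. Cell type markers were compared across the same MCAO mice 4, 7 and 5. The mean of 9 neuronal markers was 10.13, 10.10 and 10.05, within a range of 10.05 to 10.27 over the 7 MCAO mice. The 7 measured oligodendrocyte markers averaged 8.32, 8.48 and 8.38 (range 8.32 to 8.73) and the 7 astrocyte markers 8.02, 8.16 and 7.94 (range 7.94 to 8.29), so that mice 4 and 5 lay low together. The 6 pericyte and smooth muscle markers averaged 5.84, 5.77 and 5.49 (range 5.49 to 5.84), with mouse 4 highest and mouse 5 lowest. MCAO mice 6 and 1, at 5.83 and 5.81, lay above mouse 7. In the ipsilateral hemisphere mouse 7 (5.53) was below mouse 5 (5.57), so these markers followed the order of the members only in part. Of the 6, 3 were above background on all arrays. The 7 endothelial markers were at 6.37, 6.44 and 6.44 (range 6.37 to 6.60) and the 5 microglial ones at 6.17, 6.22 and 6.28 (range 6.17 to 6.50). Only 4 of these endothelial and 2 of these microglial markers were above background on all arrays. Of 4 choroid plexus markers 3 were above background on no array, and so was the single erythroid marker measured. The part of these cell types in the order of the mice was not tested.

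The pathway around the members was read from lists of known genes. Nr3c1, the receptor itself, had mouse means of 6.17 ± 0.14 in MCAO and 6.18 ± 0.15 in sham mice (SD), and Nr3c2 had 7.04 ± 0.18 and 7.18 ± 0.32. Neither was called in any of the 6 comparisons, where 0.0% to 0.149% of all probe sets were called. The counts of 0 in the short lists that follow are near that share. Neither receptor had an unadjusted p under 0.05 in the F test between mice of a group, beside 15.2% of all probe sets. Within MCAO mice the side difference of Nr3c1 was 0.24 ± 0.1 (SE, unadjusted p = 0.0392, adjusted p = 0.67, limma). In sham mice it was −0.15 ± 0.16 (SE), and the interaction had an unadjusted p of 0.0615 in limma. Nr3c1 did not follow the order of the members: it was 6.08 in MCAO mouse 4, 6.19 in mouse 7 and 6.16 in mouse 5. Of 6 receptor chaperones and co-chaperones 0 were called. Hspa4, an Hsp110-family chaperone, was 9.16 ± 0.11 in MCAO and 8.91 ± 0.24 in sham mice (difference 0.25, adjusted p = 0.859), and Fkbp4, the immunophilin that opposes Fkbp5 on the receptor, was 7.81 ± 0.08 and 7.67 ± 0.08 (SD, adjusted p = 0.919, limma). Of 7 genes of hormone metabolism and feedback 0 were called. Hsd11b1, which regenerates active hormone inside cells, had 6.72 ± 0.18 in MCAO and 6.55 ± 0.07 in sham mice, and Crh, the hypothalamic releasing hormone, was above background on 1 array. Of 4 coactivators, with Ncoa1 and Ncoa2 differing by 0.06 and 0.07 between MCAO and sham mice, 0 were called.

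Of 27 other genes known to respond to glucocorticoids, 2 were called in at least 1 comparison and both were higher in MCAO mice: 1 within MCAO mice, 2 between ipsilateral hemispheres and 1 for the mean of both, where 0.135%, 0.149% and 0.131% of all probe sets were called. At an unadjusted p under 0.05 there were 7, 10 and 6 of the 27, beside 7.1%, 7.48% and 5.72%. These did not all go 1 way. Angptl4 was lower in each of these comparisons (−0.55 between ipsilateral hemispheres), and Sult1a1 (−0.70) and Agt (−0.36) were lower between ipsilateral hemispheres. The rest were higher. Angptl4 was above background on 2 arrays, Sult1a1 on 0 and Agt on 4. Dusp1, a phosphatase that inactivates MAP kinases and is also an immediate early gene, had ipsilateral signals of 10.30 to 10.67 in MCAO mice, against 8.72, 8.86 and 8.81 in sham mice, with no overlap. It rose by 1.69 ± 0.12 there (adjusted p = 5.71e-06), by 1.30 ± 0.15 in the mean of both hemispheres (adjusted p = 0.00216), and by 0.93 ± 0.14 in ipsilateral over contralateral hemispheres of MCAO mice (SE, adjusted p = 0.0173, limma). On all 24 arrays these adjusted p were 0.968, 0.958 and 0.0947. Its contralateral signals, 9.07 to 10.33 in MCAO and 8.60 to 8.69 in sham mice, did not overlap either, though that difference missed the threshold (0.91 ± 0.25, adjusted p = 0.988). Cebpb, a bZIP transcription factor, was higher by 0.80 ± 0.14 in MCAO ipsilateral hemispheres (adjusted p = 0.0255 in limma, 0.968 on 24 arrays), on signals above background on 3 of 20 arrays. The clock gene Per1, chosen after its values were seen, differed by 0.81 ± 0.15 there (SE), with an adjusted p of 0.0621 in limma.

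The spread between mice was read for that list as well. Dusp1, Cebpb and Per1 had intraclass correlations of 0.19, 0.18 and 0.17, near the median of all probe sets. Over the whole list the median was 0.61, and 12 of 27 had an unadjusted p under 0.05 for differences between mice, beside 15.2% of probe sets. Lcn2 and Slc2a1 were the 2 called in that test (adjusted p = 0.00272 and 0.0274, limma), chosen here after their values were seen. Lcn2, a secreted iron-siderophore binding protein, was 7.66 and 7.69 in the ipsilateral and contralateral hemispheres of MCAO mouse 4 and 3.21 and 2.96 in those of MCAO mouse 5. These were the highest and the lowest of the MCAO mice on either side, and Lcn2 was above background on 6 of 20 arrays. Slc2a1, the glucose transporter of brain capillaries and astrocytes, followed the same order, with mouse means of 10.60 in mouse 4, 10.47 in mouse 7 and 9.48 in mouse 5, and an intraclass correlation of 0.95. Not all genes of the list did so. In mice 4, 7 and 5 in turn, Dusp1 had 9.90, 9.70 and 9.87 and Cebpb 4.88, 4.85 and 5.21. Mouse 7 was the lowest MCAO mouse for both. Per1 had 8.24, 8.14 and 7.97.

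Likeness to Fkbp5 was measured as Pearson's r over the 10 mouse means after the group means were removed. All 9 other members had r above 0, with a median of 0.69, where 49.8% of 19504 genes did and the median was 0. Tsc22d3 was the closest (0.77, rank 153), then Map3k6 (0.75, rank 187), Plin4 (0.70), Arrdc2 and Pdk4 (each 0.69), Zbtb16 (0.60), Hif3a (0.47), Klf9 (0.45) and Sgk1 (0.36, rank 3264). Among these members, Map3k6 and Hif3a were above background on 0 of the 20 arrays, Plin4 on 1 and Pdk4 on 10. The 5 genes most like Fkbp5 were Myt1, Olfr90, Sesn1, Bbox1 and Nlrc4, with r of 0.94 to 0.95. Of these, Sesn1, a stress-inducible regulator of growth signalling that also stood in the list above, was above background on 20 arrays, Myt1 on 1 and the other 3 on 0. With 10 mice, of which MCAO mice 4, 7 and 5 lie at the ends, these values describe this set of animals.

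Promoter windows from RefSeq (mouse build GRCm38.p6), each 250 bases before to 50 after a transcript start, were found for 9 of the 10 members, 16 windows in all. They were searched on both strands for the palindromic receptor element, read as AGAACA and TGTTCT with 3 bases of any kind between them, and for either 6-base arm, AGAACA or TGTTCT, alone, which every full element contains as well. The full element occurs in 0.00913% of 32851 windows (3 windows), and 1 of these belongs to Sgk1. It lies at 21993701 to 21993715 of chromosome 10, 189 to 175 bases before the start of 1 of 6 Sgk1 transcripts. The arm occurs in 19.0% of windows and in 4 of the members' 16, those of Sgk1 (3 windows) and Tsc22d3 (1 window). The Tsc22d3 arm lies at 140600702 to 140600707 of chromosome X, 185 to 180 bases before the start. The Sgk1 window and the Tsc22d3 window are shown because they hold these letters, with the element and every arm in capitals; the Sgk1 window holds 1 arm besides those of the element.
Sgk1, chr10:21993640-21993939, plus strand: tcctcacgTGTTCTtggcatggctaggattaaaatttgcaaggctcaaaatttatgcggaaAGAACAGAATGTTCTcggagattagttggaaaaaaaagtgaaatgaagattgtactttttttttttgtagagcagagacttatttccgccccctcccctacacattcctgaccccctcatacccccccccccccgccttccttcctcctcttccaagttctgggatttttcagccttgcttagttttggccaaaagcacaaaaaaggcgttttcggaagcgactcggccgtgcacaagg
Tsc22d3, chrX:140600473-140600772, minus strand: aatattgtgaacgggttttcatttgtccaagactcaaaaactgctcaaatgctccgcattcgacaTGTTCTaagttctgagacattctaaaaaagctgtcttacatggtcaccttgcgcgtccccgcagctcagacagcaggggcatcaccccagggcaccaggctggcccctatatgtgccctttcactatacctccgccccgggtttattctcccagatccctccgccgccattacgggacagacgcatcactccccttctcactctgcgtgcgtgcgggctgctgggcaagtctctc
The Fkbp5, Plin4, Klf9, Pdk4, Hif3a, Map3k6 and Arrdc2 windows do not have these letters, which says nothing of sites elsewhere.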

How the data were processed

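The authors deposited log2 signals per probe set. Affymetrix Expression Console is the tool that the submitters' processing notes name. Normalization, tool version and annotation build were not given in the sources used here, and log2 was inferred from the range of values. Of 29129 probe sets, 6923 array controls were left out of tests. No array pair held identical values. Arrays with a median correlation under 0.9 with the others were left out with the other hemisphere of the mouse.

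Fits used limma 3.58.1 in R 4.3.3 (lmFit, eBayes), with Benjamini-Hochberg adjustment over 22206 probe sets. Side comparisons and their interaction had mouse as a fixed block, since the titles give both hemispheres of 1 animal the same number. With group means removed, the correlation between hemispheres was 0.11 to 0.31 in the same mouse, with a median of 0.15. For different mice it was −0.2 to 0.17, with a median of −0.02, so the ranges overlap. Comparisons between mice used 1 array, or the mean of both hemispheres, per mouse, and equal numbers in MCAO and sham mice mark different animals. The fits were tested on simulated data. The intraclass correlation was (MSB − MSW)/(MSB + MSW), from the mean squares between and within mice. Alternatives were all 24 arrays, median centring, quantile normalization, other variance priors, dim probe sets left out, array weights, other uses of the block, and each mouse left out in turn.

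All 10 members are named; other genes are named where called, or, in lists with none called, as the 2 of smallest p between mice; so are the 5 genes most like Fkbp5. Per1, Lcn2, Slc2a1, Angptl4, Sult1a1 and Agt fall outside this rule and were chosen after their values were seen. The members, the gene lists, the tests and the choice of arrays were made with earlier results of these data known. The number of arrays limits the precision. Plots were made in Python 3.11.15 (matplotlib 3.10.9).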

Additional observations from a re-analysis of the deposited data

Results flagged for a closer look

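Of 40 sets of 7 MCAO values examined for a sample far from the others (4 per gene), 4 held one, where chance gives about 1 in 20 for a single set. The sets of a gene share values and are not independent, so the count cannot be weighed against that rate. Plin4 in the ipsilateral hemisphere was highest in MCAO mouse 4 at 5.12, with the next mouse at 3.95, and its mean of both hemispheres was 5.46 in that mouse, with the next at 4.30. Klf9 in the contralateral hemisphere was lowest in MCAO mouse 5 at 9.44, with the next mouse at 9.78, and its mean of both hemispheres was 9.51 in that mouse, with the next at 9.77. All but 1 of the Plin4 signals are below the background limit of their arrays, and the Klf9 signals are above it.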

How the results depend on the processing

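In 1032 values of the 10 members under alternative settings, 0 were called between hemispheres or between MCAO and sham mice. A sign was taken to turn only where the value exceeded its SE on 20 arrays or under the alternative, and 8 values did so, all on all 24 arrays: Arrdc2 between contralateral hemispheres (0.10), Klf9 within MCAO mice (0.33), Fkbp5, Map3k6, Plin4 and Sgk1 within sham mice (0.34, 0.37, 0.04 and 0.31), and the interaction for Hif3a (0.19) and Zbtb16 (0.31). None of these passed the threshold, and the cause was not tested. All 24 arrays also gave 19 called probe sets within MCAO mice (30 on 20 arrays), 1 between ipsilateral hemispheres (33), 0 for the mean of both (29), and 17851 differing between mice (153), 7 of them members (1). The trended, robust prior gave 84, 50, 1 and 5 probe sets within MCAO mice, between ipsilateral hemispheres, between contralateral hemispheres and in the interaction. Leaving out dim probe sets, so that fewer were tested, gave 71 within MCAO mice, 1 between contralateral hemispheres and 2 in the interaction.

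With mouse as a random replicate block 51 probe sets were called between ipsilateral hemispheres, and with no replicate block 29 within MCAO mice; 0 members were called under either, so the pairing changed no call of a member. Leaving out 1 mouse at a time gave 18 to 27 called probe sets within MCAO mice, 24 to 46 between ipsilateral hemispheres, 8 (without sham mouse 2) to 31 for the mean of both, 0 to 8 (without MCAO mouse 6) in the interaction, 0 to 1 within sham mice, and 72 (without MCAO mouse 2) to 133 differing between mice, of which 0 to 2 were members. Averaging all probe sets of a gene gave no other value, since each member has 1. With 3 sham mice, intervals between MCAO and sham mice are wide, and signals below the background limit (Hif3a, Map3k6, most of Plin4) carry little information on differences.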
